A study of Homo sapiens with 6 samples.

Results

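The chromosome 19 ZNF genes were taken as the protein-coding genes of chromosome 19 in GENCODE release 29 whose symbol is ZNF followed by a number and at most 1 further letter, with at least 60 counts summed over the 6 libraries of the study. This gave 217 of the 246 such genes of any count, out of 63241 genes in the count files. Of the 29 genes left out, 12 were at 0 counts in all libraries. All 217 members passed edgeR's filter on low counts and were tested. Just inside the minimum were ZNF382, whose DMSO libraries held 8, 8 and 12 counts and whose NCD libraries held 14, 8 and 20.01, and ZNF837, which had 15, 11 and 10 counts against 21, 14 and 21. Just outside were ZNF540, with 2, 3 and 1 counts against 11, 13 and 23, and ZNF793, with 32.7 counts in all.

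The libraries came from the line MDA-MB-231 (human breast cancer of the triple-negative type, genotype WT), grown for 24 h with 5 μM NCD (nitidine chloride, a plant benzophenanthridine alkaloid) or with 0.1% DMSO, the vehicle control, with 3 libraries in each group. Whether the NCD arm also held DMSO is not given in the sources used here. The labels do not say that the libraries of a group came from separate cultures, so that p-values measure the spread between these libraries, which may be technical. Totals ranged from 18223594 to 19410833 counts with DMSO and from 18232169 to 21629653 with NCD. The line's markers VIM, CD44, AXL and CAV1 were at 3056, 977, 856 and 713 CPM (a gene's counts scaled to the library's size) with DMSO and at 2638, 277, 399 and 400 CPM with NCD, whereas ESR1, PGR and CDH1 stayed at or under 7, 3 and 4 counts. ERBB2 went from 37.2 to 61.0 CPM and EPCAM from 2.71 to 4.01 CPM. The 4 markers of other cells summed to between 3 and 4.22 CPM with DMSO and between 13.2 and 15.8 CPM with NCD. PTPRC and CD3E were at or under 1 count and PECAM1 at or under 21, and the sum was nearly all COL1A1 (2.86 against 13.6 CPM). The part of this list in the results was not tested.

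Most ZNF genes of chromosome 19 encode transcription factors with a row of C2H2 zinc fingers, each folded around a zinc ion and reading a few bases of DNA. Many also carry a KRAB box, which recruits TRIM28 (KAP1). TRIM28 in turn brings the histone H3 lysine 9 methyltransferase SETDB1 and heterochromatin protein HP1, and this complex silences transposable elements and other targets. The family grew by tandem duplication, so that its genes stand in clusters along the chromosome and neighbours are often close in sequence. Their reads can therefore be shared between copies.

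The members were expressed at low levels. Their mean over all libraries ran from 0.592 CPM (ZNF382) to 97.0 CPM (ZNF146), with a median of 8.75 CPM, against a median of 19.5 CPM over all 15295 tested genes. Gene spans ran from 3.12 to 161.6 kb (median 24.2 kb). The encoded proteins held from 0 to 32 matches to the C2H2 finger pattern, with a median of 13. A KRAB box motif was found in 170 of the 217 proteins (78.3%). Exons or introns of 155 members (71.4%) overlapped another annotated gene, and 153 members (70.5%) had a fractional count in some library, which is what RSEM gives when reads are divided between genes.

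The members together were higher in every NCD library. Their summed expression was 1989, 2349 and 2165 CPM in DMSO replicates 1 to 3 and 2665, 2780 and 3364 CPM in NCD replicates 1 to 3, so that every NCD library lay above every DMSO library. As a share of all counts the members took 0.181, 0.223 and 0.204% with DMSO and 0.282, 0.295 and 0.367% with NCD. These are shares of the RNA in bulk samples, in which fewer cells and less RNA per cell cannot be told apart. By edgeR's quasi-likelihood test, with calls at a Benjamini-Hochberg adjusted p below 0.05 over all tested genes and a log2 fold change beyond 1 in size, 43 of the 217 members were higher with NCD (19.8%) and 2 were lower (0.922%). Among all 15295 tested genes 13.5% were called higher and 17.5% lower. The median log2 fold change of the members was 0.51 (quartiles 0.18 and 0.89) against 0.04 over all tested genes, and 179 members (82.5%) lay above 0 against 51.7% of all tested genes.

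**Figure D1:**
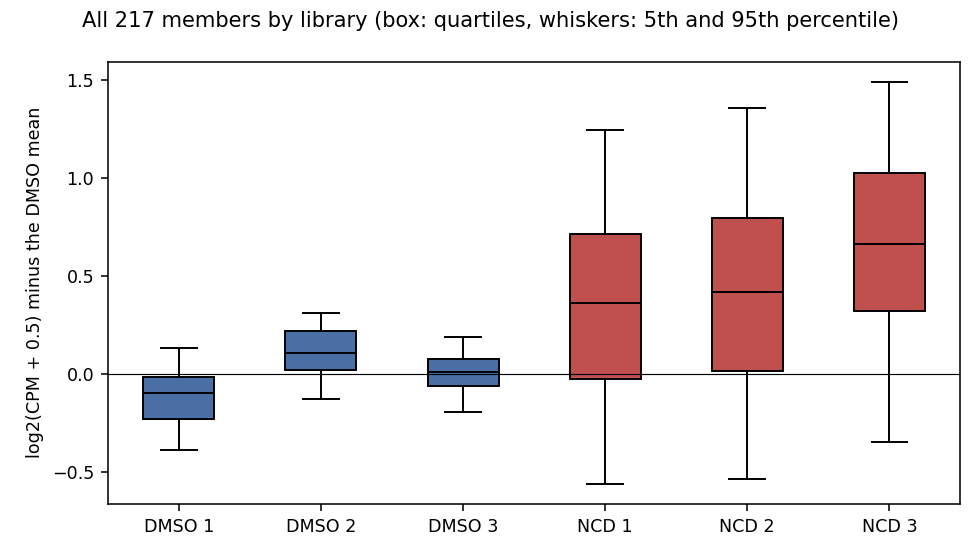
Expression of the 217 chromosome 19 ZNF genes in each library, as log2(CPM + 0.5) minus the gene's mean over the DMSO libraries. The line in each box is the median over members, the box the quartiles and the whiskers the 5th and 95th percentiles. The medians are -0.10, 0.10 and 0.01 with DMSO and 0.36, 0.42 and 0.66 with NCD.

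Most rises that passed the test on p were below the fold threshold. Without the fold threshold, 127 members were higher and 15 lower at an adjusted p below 0.05, against 35.3% and 34.1% of all tested genes, and 75 members passed in neither direction. All NCD libraries lay above all DMSO libraries in 132 members and below them in 16, where 37.2% and 35.3% of all tested genes did so. With 3 libraries against 3, the smallest p that an exact two-sided permutation test allows for a single gene is 0.1. The ZNF genes of the other chromosomes were chosen by the same symbol pattern and count minimum. They had 34 of 224 called higher (15.2%) and 19 called lower (8.48%), with a median of 0.28. The other protein-coding genes of chromosome 19 had 130 of 705 called higher (18.4%, near the members' 19.8%) and 26 lower (3.69%), with a median of 0.35. These medians stand between those of the members and of all tested genes, and the differences between the sets were not tested.

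The libraries of a group were not alike for these genes. NCD replicate 3 was the highest NCD library in 173 of the 217 members, while DMSO replicate 1 was the lowest DMSO library in 131 and DMSO replicate 2 the highest in 137. Without NCD replicate 3, 34 members were called higher and 6 lower and the median was 0.39. Without DMSO replicate 1, 33 were called higher and 4 lower and the median was 0.44. In the fits that left out other libraries, between 43 and 47 members were called higher. When libraries were scaled by their totals instead of TMM (edgeR's trimmed mean of M-values), 62 members were called higher and 1 lower, with 18.3% of all tested genes called higher and 14.3% lower. That scaling moved the median of all tested genes up by 0.20 and left the members' median 0.48 above it, as TMM did.

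Members were ordered along chromosome 19 and divided wherever the starts of neighbours were more than 1 Mb apart, which gave 16 position groups. The largest rises stood together in the third, which spans chr19:11483427-12640098 (GRCh38) from ZNF653 to ZNF791 and holds 25 members. In this group 14 members were called higher and none lower, 24 of 25 had a positive log2 fold change, and the median was 1.12. The remaining 192 members had 29 called higher (15.1%, near the 13.5% of all tested genes) and a median of 0.48. The group was singled out after its values were seen, and the difference was not tested. Its summed expression was 140, 174 and 159 CPM in the DMSO libraries and 263, 278 and 340 CPM in the NCD libraries. Leaving out each library in turn gave between 11 and 15 members called higher, with the lowest number without NCD replicate 3.

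**Figure D2:**
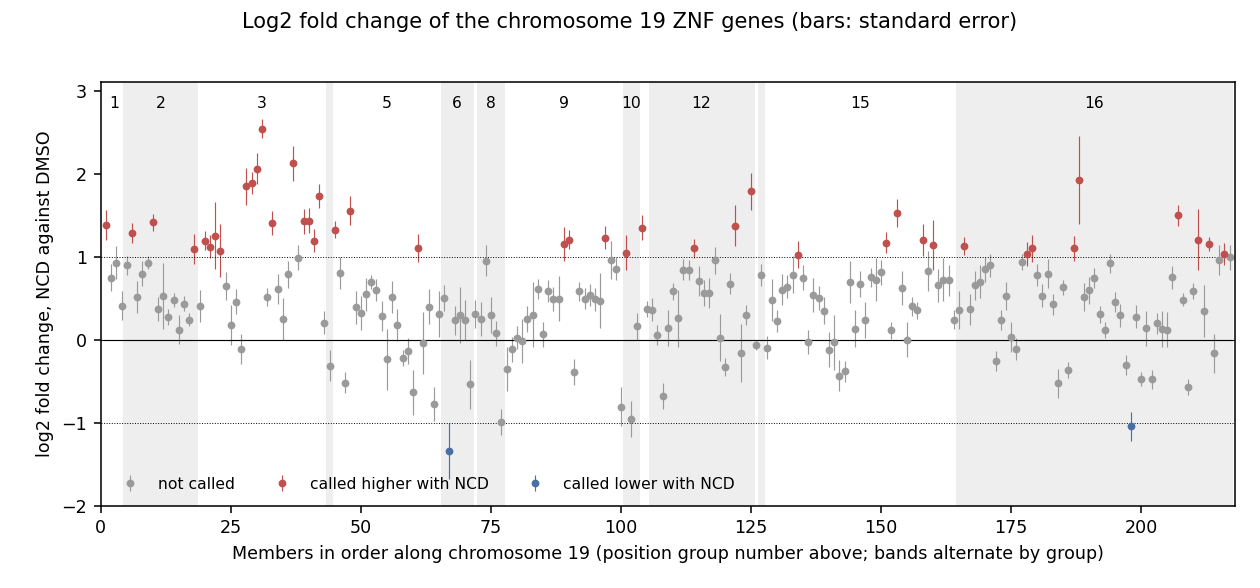
Log2 fold change (NCD against DMSO) of the 217 members in their order along chromosome 19, with bars of 1 standard error and alternating bands for the 16 position groups. Red points are called higher and blue points lower, and dotted lines mark a log2 fold change of 1 and -1. The third group holds 14 of the 43 red points.

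For rises and falls, the rule for named genes took called members with a mean of at least 1 CPM and no overlap between the groups. The lack of overlap in such members was thus fixed by the choice. ZNF844, ZNF442 and ZNF878 of the third position group had the largest rises among members that passed this rule, and ZNF91 the largest fall. Their promoters (RefSeq, GRCh38.p14, 250 bases before to 50 after the start) are shown as examples of the motifs counted over the members. They lie at chr19:12064481-12064780 on the plus strand for ZNF844, and on the minus strand at chr19:12365634-12365933 for ZNF442, chr19:12052912-12053211 for ZNF878 and chr19:23395422-23395721 for ZNF91. Each is written 5′ to 3′ along the gene, and capitals mark motif matches on either strand. The GC box, known to be bound by SP1-type factors, was searched as GGGCGGG. The box bound by the factor NF-Y was searched as CCAAT, and the motif of ETS-type factors was searched as CCGGAAG.
ZNF844: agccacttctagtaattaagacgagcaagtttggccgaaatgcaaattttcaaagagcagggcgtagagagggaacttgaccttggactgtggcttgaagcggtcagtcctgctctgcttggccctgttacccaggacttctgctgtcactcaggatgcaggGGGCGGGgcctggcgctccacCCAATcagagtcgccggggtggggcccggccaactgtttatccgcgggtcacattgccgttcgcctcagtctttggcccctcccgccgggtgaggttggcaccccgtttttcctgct
ZNF442: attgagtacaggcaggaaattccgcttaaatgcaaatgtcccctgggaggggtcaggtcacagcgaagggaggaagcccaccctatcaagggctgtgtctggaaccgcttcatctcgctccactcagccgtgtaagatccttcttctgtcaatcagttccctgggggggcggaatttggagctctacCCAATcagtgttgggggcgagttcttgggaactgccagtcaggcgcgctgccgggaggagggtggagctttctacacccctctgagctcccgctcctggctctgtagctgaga
ZNF878: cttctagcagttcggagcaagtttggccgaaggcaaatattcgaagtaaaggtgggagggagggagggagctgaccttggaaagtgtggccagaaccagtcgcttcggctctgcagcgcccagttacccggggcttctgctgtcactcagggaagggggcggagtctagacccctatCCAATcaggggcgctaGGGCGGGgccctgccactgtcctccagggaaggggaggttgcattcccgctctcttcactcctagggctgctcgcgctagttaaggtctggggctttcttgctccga
ZNF91: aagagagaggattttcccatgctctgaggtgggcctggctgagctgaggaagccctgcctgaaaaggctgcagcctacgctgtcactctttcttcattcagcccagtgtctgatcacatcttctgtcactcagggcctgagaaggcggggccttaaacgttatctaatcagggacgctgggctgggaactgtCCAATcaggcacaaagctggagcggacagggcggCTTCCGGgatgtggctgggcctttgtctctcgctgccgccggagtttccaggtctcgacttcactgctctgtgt

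The promoters of 194 members were matched by symbol. Within the third position group, 22 of 24 matched promoters held CCAAT (91.7%), against 54.6% of the 194 members' promoters and 35.7% of the 27305 promoters of the table. GGGCGGG stood in 20 of 24 (83.3%), against 51.5% of the members and 32.9% of all promoters. CCGGAAG went the other way, with 2 of 24 in the group (8.33%), 46.4% of the members and 10.7% of all promoters. TATAAA was found in 2.06% of the members and 12% of all promoters, and ACTACAA in 5.15% and 2.95%, and neither was in any of the 24. The searches covered both strands, and no searched motif contains another. The median number of CpG per promoter was 14 over all promoters, 20 over the members and 16 in the group. CCAAT was at least as frequent in some position groups with lower medians and less frequent in others. In the larger groups starting at chr19:7069444, chr19:36182060, chr19:43596392, chr19:51571298 and chr19:55476332 it stood in 23.1, 18.2, 23.5, 30 and 65.3%. CCAAT stood in all 18 matched promoters of the group at chr19:19668796-21852125 and in all 6 of that at chr19:23221599-24129961. The median log2 fold changes of these last groups were 0.32 and 0.23, and the second holds ZNF91. GGGCGGG stood in 12 and 0 of these promoters and CCGGAAG in 10 and 6. In the small group at chr19:2819874-2944971, with a median of 0.84, CCAAT and GGGCGGG each stood in all 4 promoters and CCGGAAG in none. Among the 38 matched members called higher on the whole chromosome, CCAAT stood in 57.9% and CCGGAAG in 31.6%. A match describes the letters and not a bound site, and duplicated neighbours share sequence, so that these promoters are not independent of each other.

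ZNF844 (ENSG00000223547, chr19:12064699-12081565, plus strand) encodes a protein with a KRAB motif and 6 finger matches. Its expression was 6.69, 7.81 and 6.41 CPM with DMSO and 36.0, 42.3 and 43.7 CPM with NCD. The lowest NCD library was thus far above the highest DMSO library. The log2 fold change was 2.54 (standard error, SE, 0.12, edgeR adjusted p = 1.61e-07), a 5.83-fold rise that stood at the 98.4th percentile of all tested genes. Fits without 1 library gave 2.46 to 2.62. No annotated gene with counts shared its exons, but its counts were fractional in every library, so that reads may have been divided with other genes.

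ZNF442 (ENSG00000198342, chr19:12345949-12365905, minus strand), with a KRAB motif and 14 finger matches, was at 1.57, 2.32 and 1.37 CPM with DMSO and 6.60, 7.76 and 8.63 CPM with NCD. The groups did not overlap, as the rule required, and the log2 fold change was 2.12 (SE 0.21, edgeR adjusted p = 2.1e-05). Its counts were few, from 25 to 41 per DMSO library. ZNF878 (ENSG00000257446, chr19:12043805-12052939, minus strand) was at 1.27, 1.30 and 1.32 CPM with DMSO and 4.76, 5.23 and 6.25 CPM with NCD. Its DMSO libraries were close together and its NCD libraries all higher, with a log2 fold change of 2.06 (SE 0.19, edgeR adjusted p = 1.1e-05). The neighbour ZNF433 (chr19:12014732-12035741, minus strand), with 18 finger matches and no match to the KRAB motif, was at 3.50, 3.06 and 3.12 CPM with DMSO and 11.6, 11 and 13.1 CPM with NCD. It rose by a log2 fold change of 1.89 (SE 0.13). ZNF878 and ZNF433 share exons with AC008770.1, which had at most 5.64 counts, and lie opposite ZNF433-AS1, which had at most 175 counts and a log2 fold change of -0.59. The strand setting of the counting is not given in the sources used here, so that reads of a gene and its antisense partner may have been mixed.

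ZNF763 (chr19:11965037-11980381, plus strand) was at 0.844, 1.47 and 1.15 CPM with DMSO and 4.46, 4.19 and 3.92 CPM with NCD, a log2 fold change of 1.85 (SE 0.22). ZNF490 (chr19:12577961-12640098, minus strand) was at 2.71, 3.85 and 3.67 CPM with DMSO and 11.2, 11 and 11.8 CPM with NCD, a log2 fold change of 1.73 (SE 0.15). Neither gene's groups overlapped, as the rule for named genes required. ZNF763 shares exons with AC008770.2, which had at most 10.3 counts. ZNF490 shares exons with AC010422.6 (at most 22.3 counts) and lies opposite ZNF791, which had up to 688 counts and did not pass the test (log2 fold change 0.20, SE 0.14).

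The 8 other members called higher in the group are named here after their values were seen. ZNF709 and ZNF443 (both 1.43), ZNF625 (1.41), ZNF627 and ZNF564 (both 1.19) and ZNF823 (1.12) did not overlap between the groups in any library, with standard errors from 0.12 to 0.15 on the log2 scale. ZNF441 was at 2.35, 4.81 and 2.96 CPM with DMSO and 5.42, 5.38 and 13.4 CPM with NCD. Its log2 fold change of 1.25 (SE 0.41) thus leaned on NCD replicate 3, although the groups did not overlap. ZNF491, at 2.29, 1.41 and 1.37 against 2.23, 4.55 and 3.92 CPM, overlapped between the groups (log2 fold change 1.07, SE 0.32). Below the fold threshold, ZNF799 (0.99), ZNF563 (0.79), ZNF440 (0.64), ZNF136 (0.61), ZNF20 (0.51) and ZNF69 (0.46) were higher at an adjusted p below 0.05 from edgeR. ZNF653 (0.41), ZNF44 (0.25), ZNF791 (0.20), ZNF439 (0.18) and ZNF700 (-0.11) did not pass.

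**Figure D3:**
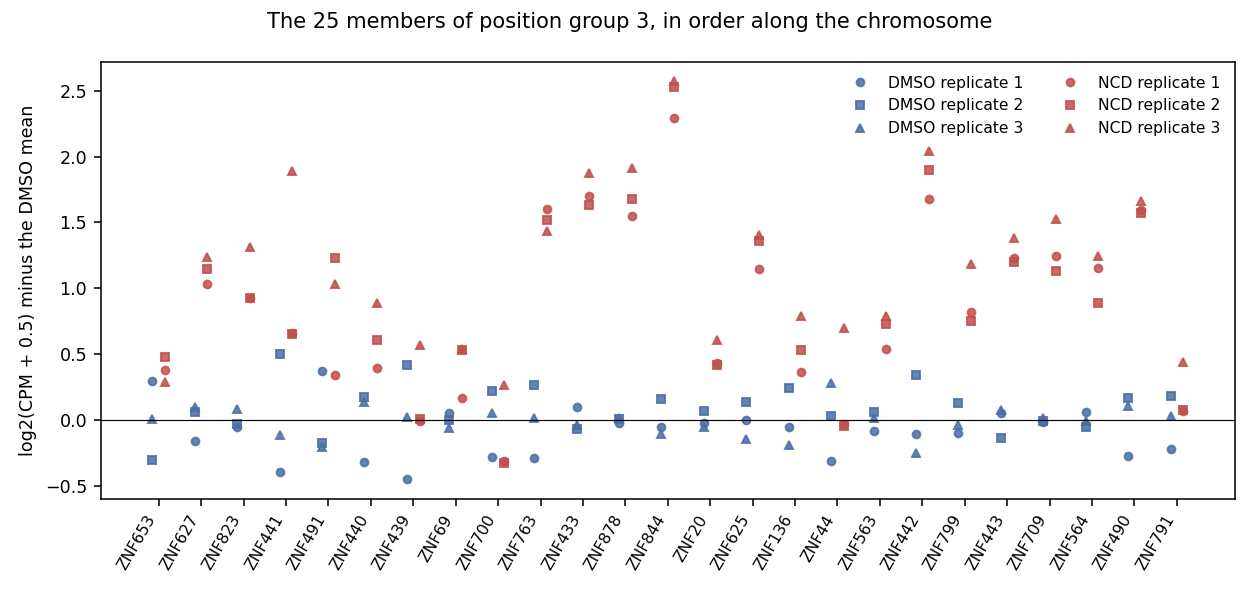
The 25 members of the third position group in chromosomal order, each library as log2(CPM + 0.5) minus the gene's DMSO mean (blue DMSO, red NCD, with a marker for each replicate). ZNF844 stands highest, ZNF441 is raised most in NCD replicate 3, and ZNF700 and ZNF439 show NCD libraries among the DMSO ones.

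Other genes in the same stretch were mixed. Of 4 protein-coding non-members tested, ELOF1 (a transcription elongation factor) had a log2 fold change of 0.50, ECSIT (a signalling adaptor) 0.13 and AC010422.6 -0.23, none of them called. AC008758.4, which shares exons with ZNF799, was called higher at 4.19 (SE 0.73), above every member of the stretch. It had at most 20.4 counts in any library, and the counts of ZNF799 were fractional. Of 6 tested genes of other types, the lincRNA AC008543.1 was called (1.13). ZNF433-AS1 was lower (-0.59, SE 0.12, edgeR adjusted p = 0.0022), short of the fold threshold. The ZNF pseudogenes ZNF788P (0.13) and ZNF887P (0.20) did not pass. In this group 18 of 25 members had fractional counts, and 20 of 25 carried the KRAB motif.

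Outside this stretch the share of members called higher was near that of all tested genes (15.1% against 13.5%). The median log2 fold change there was 0.48, against 0.04 over all tested genes, and both members called lower lay there. The calls were spread over the chromosome. The 29 members called higher outside the stretch had log2 fold changes from 1.02 to 1.92. By the rule for named genes the largest were ZNF296 (ENSG00000170684, chr19:45071500-45076588, minus strand), ZNF253 (ENSG00000256771, chr19:19865886-19894674, plus strand), ZNF888 (ENSG00000213793, chr19:52904417-52923481, minus strand) and ZNF329 (ENSG00000181894, chr19:58126252-58155110, minus strand). ZNF296, a short gene of 5.09 kb with 6 finger matches and no KRAB motif, was at 1.51, 1.30 and 0.877 CPM with DMSO and 4.24, 4.66 and 3.82 CPM with NCD. Its log2 fold change was 1.79 (SE 0.23), on whole counts in every library, and its exons overlap those of GEMIN7-AS1, which had at most 14.4 counts.

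ZNF253, with a KRAB motif and 11 finger matches, was at 3.68, 4.75 and 3.23 CPM with DMSO and 9.70, 11.5 and 13.1 CPM with NCD (log2 fold change 1.55, SE 0.18). ZNF888, with a KRAB motif and 17 finger matches, was at 8.80, 10.8 and 9.43 CPM with DMSO and 23.6, 24.8 and 35.4 CPM with NCD (1.53, SE 0.17). ZNF329, with 12 finger matches and no KRAB motif, was at 3.98, 3.85 and 3.34 CPM with DMSO and 11, 10.9 and 9.60 CPM with NCD (1.5, SE 0.13). In all 3 the groups did not overlap, as the rule for named genes required. NCD replicate 3 was the highest NCD library of ZNF253 and ZNF888 but the lowest of ZNF329. ZNF773, named after its values were seen, had the largest fitted change outside the third group (1.92, SE 0.53) on a low and uneven level of 0.422, 0.453 and 0.219 against 0.655, 2.28 and 1.31 CPM.

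**Figure D4:**
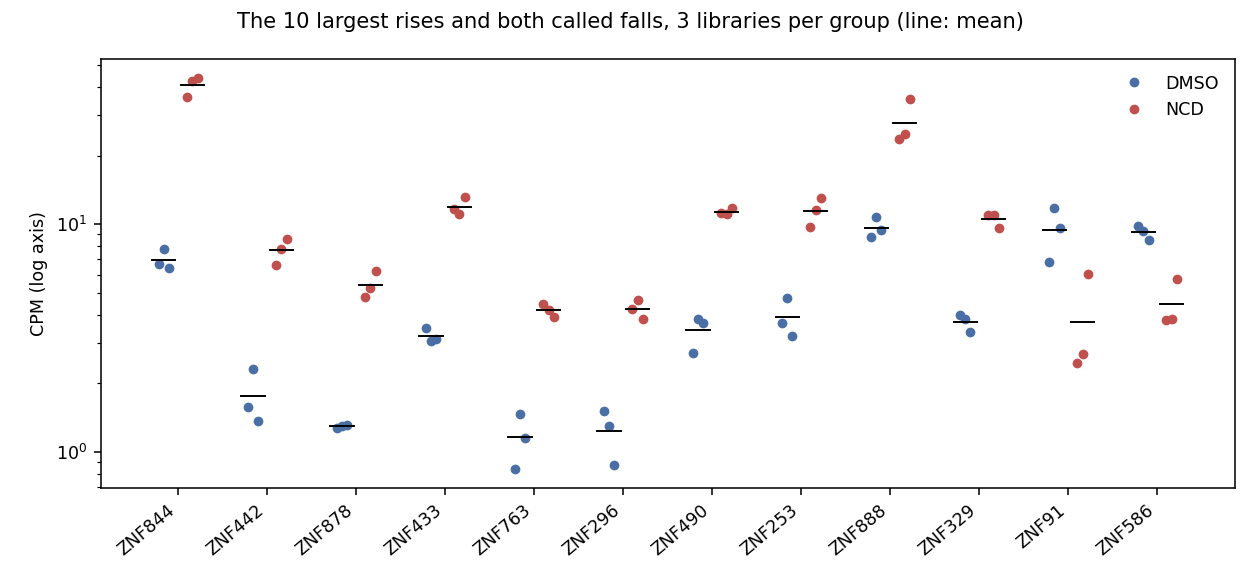
CPM (log axis) of the 10 members with the largest rises and of both members called lower, with a point for each of 3 libraries per group and a line at the mean. In each of the 12 genes all NCD points lie to 1 side of all DMSO points, which the rule for choosing them required. The falls of ZNF91 and ZNF586 are smaller than the rises of ZNF844 and ZNF442.

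The other position groups with at least 5 members had medians between 0.23 and 0.60. Smaller groups ran from -0.31 (ZNF333 alone) to 0.86 (2 members at chr19:42068477-42228201), and the 4 members at chr19:2819874-2944971 had a median of 0.84. The telomeric pair of groups, chr19:51571298-53580269 with 37 members and chr19:55476332-58481230 with 53, had 5 (13.5%) and 9 (17%) called higher and medians of 0.60 and 0.51. The group at chr19:36182060-37817300 had 3 of 23 called higher (13%, median 0.49) and that at chr19:43596392-45076588 had 3 of 20 (15%, median 0.56). In the group at chr19:7069444-9793180 all 14 members had positive values, with 3 called higher (21.4%) and a median of 0.52. The group at chr19:19668796-21852125, with 21 members, had 3 called higher (14.3%), among them ZNF253 and ZNF101, and a median of 0.32. Most of these shares lay close to the 13.5% of all tested genes called higher. The adjoining group at chr19:23221599-24129961 held 6 members with a median of 0.23, none called higher, and ZNF91 called lower.

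ZNF91 (ENSG00000167232, chr19:23304991-23395560, minus strand) encodes a KRAB protein that represses SVA retrotransposons, and its 32 finger matches were the most of any member. It was at 6.81, 11.7 and 9.65 CPM with DMSO and 2.45, 2.69 and 6.01 CPM with NCD. All NCD libraries lay below all DMSO libraries, NCD replicate 3 only by a small margin. The log2 fold change was -1.34 (SE 0.34, edgeR adjusted p = 0.00627), and it ranged from -1.89 to -1.12 when each library was left out. ZNF93 (named after its values were seen), which represses LINE-1 elements, was at 6.21, 8.54 and 6.80 against 8.30, 7.81 and 12.1 CPM and did not pass the test (log2 fold change 0.39, SE 0.20).

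ZNF586 (ENSG00000083828, chr19:57769655-57819939, plus strand), with a KRAB motif and 8 finger matches, was at 9.76, 9.34 and 8.50 CPM with DMSO and 3.80, 3.83 and 5.73 CPM with NCD. The groups did not overlap, as the rule for named genes required, and the log2 fold change was -1.04 (SE 0.18, edgeR adjusted p = 0.000631). This lies close to the fold threshold, and the call was lost at -0.84 with library totals, at -0.96 without NCD replicate 1 and at -0.95 without NCD replicate 2. Its exons overlap those of ZNF587B, which had up to 398 counts, and it lies opposite ZNF552, which had up to 166. The other 13 members that were lower at an adjusted p below 0.05 had log2 fold changes from -0.997 (ZNF792) to -0.33 (ZNF226). In 12 of the 15 members lower at that level, NCD replicate 3 was the highest NCD library and so the nearest to DMSO. This is near its share over all members, where it was the highest NCD library in 173 of 217.

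None of the 5 most abundant members was called. Per kb of exon over all libraries the highest levels were those of ZNF146 (23.4 CPM per kb), ZNF114 (19), ZNF317 (8.82), ZNF121 (7.77) and ZNF211 (6.66). ZNF146, also known as OZF and made almost wholly of zinc fingers, was at 93.3, 112 and 98.1 CPM with DMSO and 80.3, 80.5 and 118 CPM with NCD, so that the groups overlapped (log2 fold change -0.12, SE 0.15). ZNF114 was at 56.5, 57.7 and 60.3 against 55.0, 55.6 and 56.4 CPM (-0.06, SE 0.06). Scaling by library totals turned the sign of both, to 0.08 and 0.13. ZNF121 was at 45.3, 64.1 and 52.4 against 47.9, 54.0 and 74.2 CPM and overlapped between the groups (0.12, SE 0.17), with a negative value without DMSO replicate 1 (-0.02) or NCD replicate 3 (-0.10).

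ZNF317 and ZNF211 were higher in every NCD library. ZNF317 was at 27.8, 32.7 and 31.7 CPM with DMSO and 59.2, 56.6 and 59.9 CPM with NCD (log2 fold change 0.93, SE 0.08). ZNF211 was at 14.8, 13.8 and 17 against 26.8, 27.1 and 32.4 CPM (0.92, SE 0.11). Both were below the fold threshold with TMM and above it with library totals, at 1.12 each. ZNF274 (chr19:58183029-58213562, plus strand), which binds the 3′ ends of ZNF genes and recruits SETDB1 there, was at 31.2, 35.9 and 31.5 CPM with DMSO and 45.2, 46.4 and 45.8 CPM with NCD. Its groups did not overlap and the log2 fold change was 0.48 (SE 0.08, edgeR adjusted p = 0.000495), short of the fold threshold. ZNF473, which takes part in histone pre-mRNA processing and is named after its values were seen, was at 15.9, 18.7 and 12.6 against 26.9, 25.7 and 28.4 CPM (0.78, SE 0.14).

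Gene span was one feature along which the members differed. Members under 10 kb had 8 of 24 called higher and a median log2 fold change of 0.72, those of 10 to 20 kb had 18 of 63 and 0.65, those of 20 to 40 kb had 10 of 85 and 0.50, and those of 40 kb or more had 7 of 45 and 0.31. The shares called higher were 33.3, 28.6, 11.8 and 15.6%, against 21.5, 21.1, 15.1 and 4.64% of all tested protein-coding genes in the same bins, so that from 20 to 40 kb the members were called less often. The medians of the protein-coding genes were 0.39, 0.43, 0.23 and -0.63. At 40 kb or more, 2083 of 5627 protein-coding genes and 2 of 45 members were called lower. The long members were shorter, with a median span of 58.4 kb against 87.8 kb. In narrower bins chosen after seeing the data, members of 40 to 60 kb had a median of 0.32 (26 genes) against -0.03 over 1569 protein-coding genes, and members of 60 to 100 kb a median of 0.39 (17 genes) against -0.41 over 1606. ZNF genes of other chromosomes had medians of 0.67, 0.69, 0.46 and -0.13 in the 4 bins, with 17 of 80 called lower at 40 kb or more. Spearman's rho between span and log2 fold change was -0.23 across the 217 members and -0.58 across 12687 protein-coding genes, which share their libraries and are not independent.

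**Figure D5:**
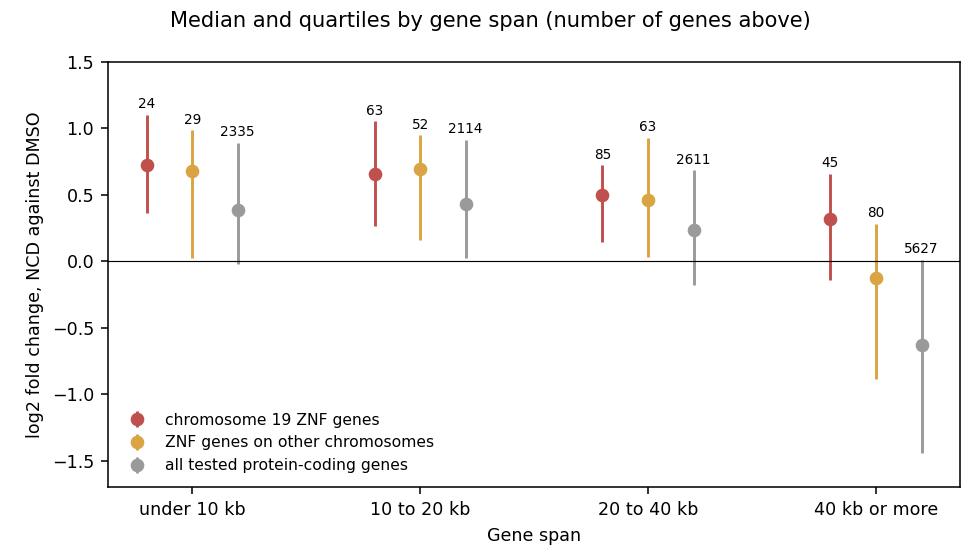
Median log2 fold change (point) with quartiles (line) by gene span for the chromosome 19 ZNF genes, ZNF genes of other chromosomes and all tested protein-coding genes, with the number of genes above. At 40 kb or more the medians are 0.31, -0.13 and -0.63.

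By protein features the medians were closer together. Those with the KRAB motif had 32 of 170 called higher (18.8%) and both called lower (1.18%), with a median of 0.53. Those without it had 11 of 47 called higher (23.4%), with a median of 0.37. Of all tested genes 13.5% were called higher and 17.5% lower. Members with under 8, 8 to 12 and 13 or more finger matches had medians of 0.50, 0.52 and 0.50. In 3 classes of about equal size by mean CPM, the medians were 0.48, 0.61 and 0.35 from the lowest class to the highest. On the plus strand 22 of 118 members were called higher (18.6%), and on the minus strand 21 of 99 (21.2%). The 64 members with whole counts in all libraries had 8 called higher (12.5%, below the 13.5% of all tested genes) and a median of 0.33, against 35 of 153 (22.9%) and 0.56 where some count was fractional. The 62 members that overlap no other gene had 10 called higher (16.1%) and a median of 0.48. None of these differences was tested.

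The partners through which KRAB proteins act were mixed. Of 35 genes written down as cofactors of KRAB repression, 34 were tested and ZFP57 was not. None was called higher, where 13.5% of all tested genes were, and 5 were called lower (14.7%, against 17.5%), with a median log2 fold change of -0.02. Without the fold threshold 8 were higher (23.5%, against 35.3%) and 12 lower (35.3%, against 34.1%), so that the share of falls was near that of all tested genes. TRIM28, the corepressor, was at 225, 231 and 224 CPM with DMSO and 300, 295 and 278 CPM with NCD (0.36, SE 0.06), with no overlap between the groups. SETDB1 was at 25.3, 30.8 and 28.9 against 29.1, 31.1 and 32.1 CPM and did not pass (0.12, SE 0.09, edgeR adjusted p = 0.28).

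The 5 cofactors called lower were ATRX, a chromatin remodeller (28.4, 58.2 and 40.2 against 2.62, 3.26 and 7.32 CPM, log2 fold change -3.26, SE 0.38), EHMT1, a histone H3 lysine 9 methyltransferase (32.8, 36.2 and 35.4 against 6.90, 6.67 and 5.87 CPM, -2.42), PPHLN1, a subunit of the HUSH silencing complex (-1.49), TRIM24 (-1.45) and TRIM33 (-1.17). In none of them did the groups overlap. All are long genes, with spans of 281, 251, 221, 130 and 118 kb in the same order, and the part of gene span in their fall was not tested.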

How the data were processed

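RNA from MDA-MB-231 cells was sequenced in 6 libraries, 3 per group. Per the labels, the authors aligned reads with HISAT2 to GRCh38 (hg38) and deposited RSEM expected counts per Ensembl gene, without normalization. The annotation release is not given in the sources used here. The descriptions of NCD replicates 2 and 3 name other cell line numbers, and the cell line field was used. In each library 25 stray lines were skipped. GENCODE release 29 gave gene types, positions and overlaps, and its genes held 99.44 to 99.51% of the counts.

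Expected counts were rounded and fitted over all genes with edgeR 4.0.16 in R 4.3.3 (filterByExpr, TMM factors 0.911 to 0.949 with DMSO and 1.06 to 1.09 with NCD, glmQLFit, glmQLFTest). Standard errors are the absolute log2 fold change over the square root of F. Calls need a Benjamini-Hochberg adjusted p below 0.05 and a log2 fold change beyond 1. The script was tested on simulated data. No libraries of a group agreed within sampling noise (chi-square per degree of freedom 2.09 to 16.9). Depth limits genes of a few counts.

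The members and lists were chosen with earlier results of these data known. Named genes were the 10 largest rises and up to 10 falls among called members with a mean of at least 1 CPM and no overlap between groups, the 5 highest per kb of exon, ZNF274, TRIM28, SETDB1, each called cofactor, and the genes beside the count minimum. Proteins were translated from the longest GENCODE coding sequence, fingers matched to C-x(2,4)-C-x(12)-H-x(3,5)-H and the KRAB motif to L-Y-x-x-V-M-x-E in the first 250 residues. Promoters are RefSeq's (GRCh38.p14). Alternatives were DESeq2 1.42.0, limma-voom 3.58.1, other scalings and filters, the replicate block, and each library left out. Tables and figures used Python 3.11.15, pandas 2.3.3, numpy 2.4.6 and matplotlib 3.10.9.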

Additional observations from a re-analysis of the deposited data

How the results depend on the processing

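Members called higher numbered 41 to 43 with DESeq2, limma-voom, ribosomal protein genes as the reference, a minimum of 10 counts per library (215 members tested), or with no filter, and 62 with library totals, against 43. They were 127 with no fold threshold, a looser rule, and 33 to 47 with each library left out. Among the 62 members overlapping no gene they were 10 (16.1%), and among the 64 with whole counts 8 (12.5%). Both subsets hold fewer genes, and both shares also lay below the 19.8% of all members. The part of divided reads in this was not tested. Members called lower were 1 with library totals, 15 with no fold threshold, 0 among members overlapping no gene, 0 among those with whole counts, and 1 to 6 with each library left out (the 6 without NCD replicate 3), against 2. The median log2 fold change was 0.71 with library totals, 0.33 among members with whole counts and 0.39 to 0.57 with each library left out. Relative to the median of all tested genes it stayed at 0.39 to 0.55 in those last fits. Of the cofactors, 1 was called higher with library totals, and 8 higher and 12 lower with no fold threshold. Of the 12 named members called, only ZNF586 lost its call in any fit. The sign turned for ZNF146 (0.082) and ZNF114 (0.13) with library totals, for ZNF121 without DMSO replicate 1 (-0.02) or NCD replicate 3 (-0.10; range to 0.25) and for ZNF382 without NCD replicate 3 (-0.055; range to 0.53). The cause was not tested. ZNF317 and ZNF211 passed the fold threshold with library totals (1.12 each).

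Deviations of same-numbered libraries from their group means had correlations of 0.216, -0.185 and 0.0226. With 3 libraries per group these values cannot decide whether the numbers pair the libraries, and the main fit did not pair them. With a replicate block, 43 members were called higher and 2 lower (median 0.49), and 6 cofactors lower. At this depth members near 60 counts, such as ZNF382 (standard error 0.39), could show only large changes.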
